A study of Mus musculus with 24 samples.

Results

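The nuclear pore complex genes examined here were 32 rows of the bulk count table, out of 54957 rows; 26497 rows were above 0 in at least 1 library. They were chosen by gene symbol as structural nucleoporins and partners of nuclear export, by someone who already knew results from these same libraries. Which measured values prompted the choice is not recorded, so all comparisons below describe the genes in these libraries and none is independent support for the choice. All 32 genes passed the filter on low counts in each of the 11 comparisons, so the counts below are over all of them.

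Nuclear pore complexes are the channels through the nuclear envelope. A Y-shaped outer ring and an inner ring form the scaffold, transmembrane nucleoporins hold it in the membrane, and nucleoporins rich in phenylalanine-glycine (FG) repeats fill the channel and bind transport receptors on their way through. Filaments on the cytoplasmic face release exported mRNA, and a basket on the nuclear face receives it. In T cells, activation is accompanied by cell growth and division, and dividing cells have to build new pores.

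RNA was measured in 24 libraries, 4 for each of 6 groups, from T cells sorted out of tumours of mice that carried B16F10-OVA, a mouse melanoma line that expresses ovalbumin as a model antigen. CD8+ T cells and CD4+FOXP3+ regulatory T (Treg) cells were each taken after anti-JAML, anti-PD-1 or isotype control antibody, so the groups were CD8 anti-JAML, CD8 anti-PD-1, CD8 isotype, Treg anti-JAML, Treg anti-PD-1 and Treg isotype. All mice carried the tumour and all received an antibody, 200 micrograms, 1 day before harvest. JAML, also called AMICA1, belongs to the junctional adhesion molecules, and PD-1 is a checkpoint receptor that restrains T cells once activated. Fewer than 400 cells went into each library, made by Smart-seq2, which amplifies polyadenylated RNA along the whole transcript. The labels used here give neither the strain, age and sex of the mice nor whether each library of a group had its own mouse. The p-values below therefore rest on the scatter of libraries, part of which may be technical.

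The libraries held 11170918 to 22556460 counts (median 16238787) and 12643 to 15356 genes with a count. The sorted populations matched their labels: Cd8a lay at 1096 to 1898 CPM (counts scaled to a common library total with TMM factors) in CD8 libraries and at 0 to 0.0761 CPM in Treg libraries, while Foxp3 was at 0 in all CD8 libraries and at 40.6 to 169 CPM in Treg libraries. Cd8b1, however, had 12.3 to 48.3 CPM in Treg libraries. Libraries 2 and 4 of CD8 anti-JAML and library 3 of Treg isotype stood apart. CD8 anti-JAML library 2 had 412 CPM of the macrophage gene Lyz2, mitochondrial genes took 6.89% of library 4 of the same group, and Treg isotype library 3 had the fewest genes with a count, 12643. No cutoff is given for this set, and Treg anti-PD-1 libraries 1 and 4, which are not in it, had more Lyz2, 658 and 866 CPM. Treg anti-PD-1 libraries 1 and 4 held 766 and 1128 CPM summed over 7 macrophage markers, against 146 and 11.6 CPM in libraries 2 and 3 of that group. Summed over 3 globin genes that mark red blood cells, library 4 of Treg anti-JAML held 1269 CPM, library 1 of Treg anti-PD-1 626 CPM, libraries 2 and 4 of CD8 anti-JAML 457 and 354 CPM and library 3 of CD8 isotype 268 CPM, and the other 19 held at most 7.80 CPM.

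Levels between genes were set side by side on the TPM scale, the authors' length-scaled unit. Averaged over the 6 groups, Sec13, an outer ring subunit that is also part of the COPII vesicle coat, had 205 TPM, and Nxt1, the small partner of the mRNA export receptor Nxf1, had 204.6 TPM. Rae1, an mRNA export factor bound by Nup98, followed with 120.2 TPM and Nxf1 itself with 105 TPM. The lowest levels belonged to large scaffold or membrane proteins, with 4.84 TPM for Pom121, 4.70 TPM for Nup205 and 4.06 TPM for Nup155. The outer ring subunits alone ran from 205 TPM for Sec13 to 8.93 TPM for Nup133 and 7.95 TPM for Ahctf1, almost the range of the whole set.

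Treg isotype had the lowest mean TPM of the 6 groups for 23 of the 32 genes, and CD8 anti-PD-1 had the highest for 15. Treg anti-PD-1 had the highest mean for 9 genes, among them Nup62, Nup210 and Gle1. The share of all genes with the same lowest or highest group is not given, so these counts may not be particular to the set. Treg isotype libraries also had the fewest genes with a count, 13264.5 on average, and CD8 anti-PD-1 libraries the most, 14840.8. Single libraries at 0 counts occurred only in Treg isotype: library 3 for Nup133, and library 2 for Pom121, Nup205 and Nup155. Zeros of this kind in 1 of 4 libraries limit what can be said of these 4 genes, and their standard errors in the comparisons of Treg isotype with 1 other group ran from 0.96 to 1.24 on the log2 scale. Tpr, the filament protein of the nuclear basket, varied least between groups, with group means of 58.2 to 66.1 TPM.

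**Figure D1:**
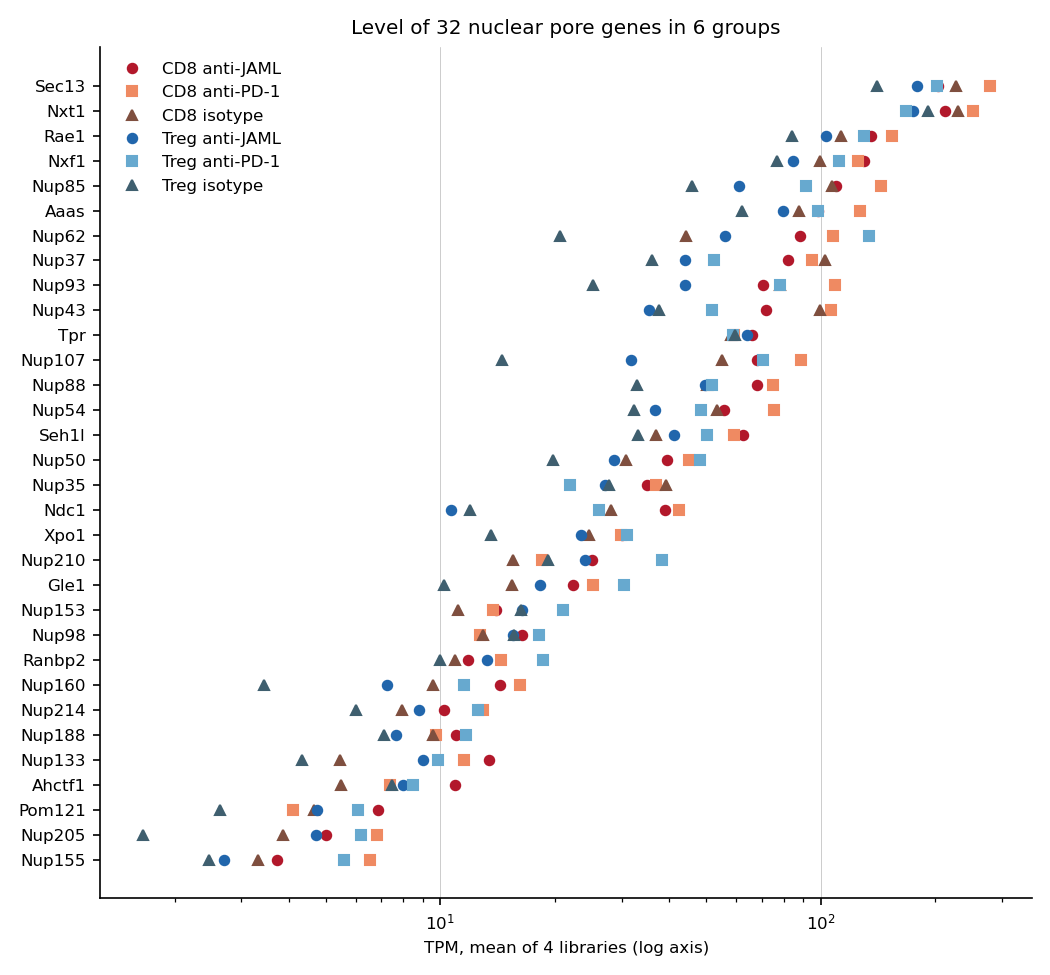
Level of each gene as the mean TPM of 4 libraries (horizontal axis, log scale) for the 32 genes, with 1 symbol per group and genes ordered by their mean over the 6 groups. The dark blue-grey triangles of Treg isotype are the lowest symbol for 23 genes, and Sec13 and Nxt1 lie at the top near 205 TPM. The share of all genes with Treg isotype lowest is not given.

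After isotype antibody, 10 of the 32 genes were higher in CD8 than in Treg cells by edgeR's quasi-likelihood test at an adjusted p under 0.05, and 0 were lower. Over all 11680 genes tested, 15.3% were called in either direction and 8.21% were higher in CD8 cells, against 31.2% of the nuclear pore genes. The median log2 fold change was 0.68 over the 32 genes and -0.06 over all genes, and 28 of the 32 were above 0. DESeq2 called 11 of the 32, and 22.9% of all genes in either direction (here and below, of those to which DESeq2 gave an adjusted p). In bulk RNA of sorted cells, fewer cells of one kind and less RNA per cell cannot be told apart. The called genes were Nup107, Nup85, Nup43, Nup37 and Sec13 of the outer ring, Nup93 of the inner ring, Ndc1 of the membrane, Nup88 of the cytoplasmic face, Nup50 of the basket and the export receptor Xpo1.

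The outer ring held 5 of these 10 calls among its 9 members. Nup107, a core subunit of the Y complex (ENSMUSG00000052798.13, mm10 chr10:117750621-117792705, minus strand), showed the highest fold. Its level was 94.6, 115, 104 and 103 CPM in CD8 isotype libraries, against 22.7, 30.2, 23.1 and 20.9 CPM in Treg isotype libraries. Every CD8 library lay far above every Treg library, and the log2 fold change was 2.03 ± 0.19 (SE; edgeR adjusted p = 0.000283). Nup43, a beta-propeller subunit, had 122, 121, 123 and 136 CPM in CD8 isotype libraries and 60.7, 28.0, 28.1 and 48.7 CPM in Treg isotype libraries. The CD8 values were close together and the Treg values were scattered below them, at a log2 fold change of 1.53 ± 0.27 (edgeR adjusted p = 0.00578). Nup85, the scaffold subunit that binds Seh1l, had 193, 202, 153 and 163 CPM in CD8 isotype libraries and 85.7, 47.5, 49.7 and 81.8 CPM in Treg isotype libraries, again without overlap. Its log2 fold change was 1.36 ± 0.23 (edgeR adjusted p = 0.00517).

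Sec13, the most abundant of the outer ring genes per length, had the smallest fold of the 5 calls in that ring. It had 394, 375, 332 and 318 CPM in CD8 isotype libraries and 209, 161, 189 and 209.7 CPM in Treg isotype libraries, and the groups did not overlap. The log2 fold change was 0.81 ± 0.14 (edgeR adjusted p = 0.00443). Nup37, the partner of Nup160, averaged 168 ± 16.3 CPM in CD8 isotype and 54.4 ± 36.9 CPM in Treg isotype (SD, n = 4 each), with a log2 fold change of 1.55 ± 0.40. Nup160 itself averaged 41.3 ± 12.2 CPM in CD8 isotype and 12.3 ± 8.65 CPM in Treg isotype (SD, n = 4 each), and its log2 fold change of 1.69 ± 0.56 did not pass (edgeR adjusted p = 0.0772). Seh1l, which is shared with a regulator of amino acid sensing, had a log2 fold change of 0.31 ± 0.26 that did not pass. Nup133 (0.50 ± 1.12) and Ahctf1, the chromatin-binding subunit that seeds pores after mitosis (-0.31 ± 0.37), did not pass either.

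In the inner ring, Nup93, which anchors the channel nucleoporins (ENSMUSG00000032939.14, mm10 chr8:94214564-94317227, plus strand), was the single call among 5 members. It had 169.8, 173, 109 and 197 CPM in CD8 isotype libraries and 74.0, 25.2, 36.5 and 50.3 CPM in Treg isotype libraries. The groups did not overlap, and the log2 fold change was 1.74 ± 0.33 (edgeR adjusted p = 0.00869). The large scaffold proteins Nup188 and Nup205, with Nup155 and Nup35, had log2 fold changes between 0.47 and 1.43 that did not pass. Of the transmembrane genes, Ndc1, needed to insert pores into the envelope, averaged 68.5 ± 25.4 CPM in CD8 isotype and 25.2 ± 10.8 CPM in Treg isotype (SD, n = 4 each), at a log2 fold change of 1.38 ± 0.38 (edgeR adjusted p = 0.0374). Nup210, whose large domain lies in the lumen of the envelope, had a log2 fold change of -0.16 ± 0.24, and Pom121, another membrane anchor, 0.99 ± 1.24, and neither passed.

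At the pore's cytoplasmic face, Nup88, the scaffold partner of Nup214, had 199, 212, 172 and 219 CPM in CD8 isotype libraries and 138, 81.0, 106 and 134 CPM in Treg isotype libraries. The lowest CD8 library was above the highest Treg library, with a log2 fold change of 0.74 ± 0.19 (edgeR adjusted p = 0.0279). Rae1, Gle1, Aaas, Nup214 and Ranbp2, the last a SUMO ligase of the cytoplasmic filaments, had log2 fold changes from 0.28 to 0.72 that did not pass. In the nuclear basket, Nup50, which helps release cargo from importin alpha, averaged 74.0 ± 7.13 CPM in CD8 isotype and 40.6 ± 12 CPM in Treg isotype (SD, n = 4 each), with a log2 fold change of 0.80 ± 0.23 (edgeR adjusted p = 0.046). The basket's anchor Nup153 (-0.42 ± 0.29) and its filament Tpr (0.09 ± 0.18) did not pass. None of the 3 channel FG genes passed: Nup54 stood at 0.90 ± 0.39, Nup62 at 1.32 ± 0.51 and Nup98 at -0.19 ± 0.28.

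Xpo1, the export receptor for proteins with a leucine-rich signal (ENSMUSG00000020290.14, mm10 chr11:23256041-23298249, plus strand), had 95.0, 72.9, 79.6 and 100.1 CPM in CD8 isotype libraries. It had 47.4, 41.7, 41.9 and 38.7 CPM in Treg isotype libraries. The Treg values were tight and all below the CD8 values, with a log2 fold change of 0.97 ± 0.18 (edgeR adjusted p = 0.00815). The mRNA export pair Nxf1 (0.52 ± 0.19) and Nxt1 (0.36 ± 0.29) did not pass.

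Library measures moved with this comparison. CD8 isotype libraries had 13927 to 14390 genes with a count and 4758 to 5415 CPM summed over 16 proliferation genes, against 12643 to 14378 genes and 1487 to 3030 CPM in Treg isotype libraries, and 12 of the 16 proliferation genes were called higher in CD8 cells. The part of proliferation in the nuclear pore result was not tested. In a model that also held how many genes a library detected, 3 of the 10 genes were called, Nup107, Sec13 and Nup37. Without Treg isotype library 3, 6 were called, and the same count resulted without CD8 isotype library 1, 2 or 4. The share of all genes called in these fits is not given, so the lower counts may not be particular to the nuclear pore genes. Nup107, Sec13, Nup85, Nup43, Xpo1 and Nup93 stayed below the threshold in each of the 8 fits that left out 1 library, while Nup50, Nup37, Ndc1 and Nup88 each lost their call in 4 to 7 of them. Marker sums of other cells were 14.5 to 54.9 CPM for macrophages in CD8 isotype and 20.1 to 77.0 CPM in Treg isotype, and Csf1r was at 0 in all 8 libraries. B and plasma cell markers summed to at most 9.73 CPM in CD8 isotype and to 14.2 to 53.1 CPM in Treg isotype, and of the 4 markers Cd79b was called lower in CD8 cells (-2.40 ± 0.63, edgeR adjusted p = 0.0314) while Ms4a1 and Jchain were at 0 in both groups. The part of these cells was not tested.

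**Figure D2:**
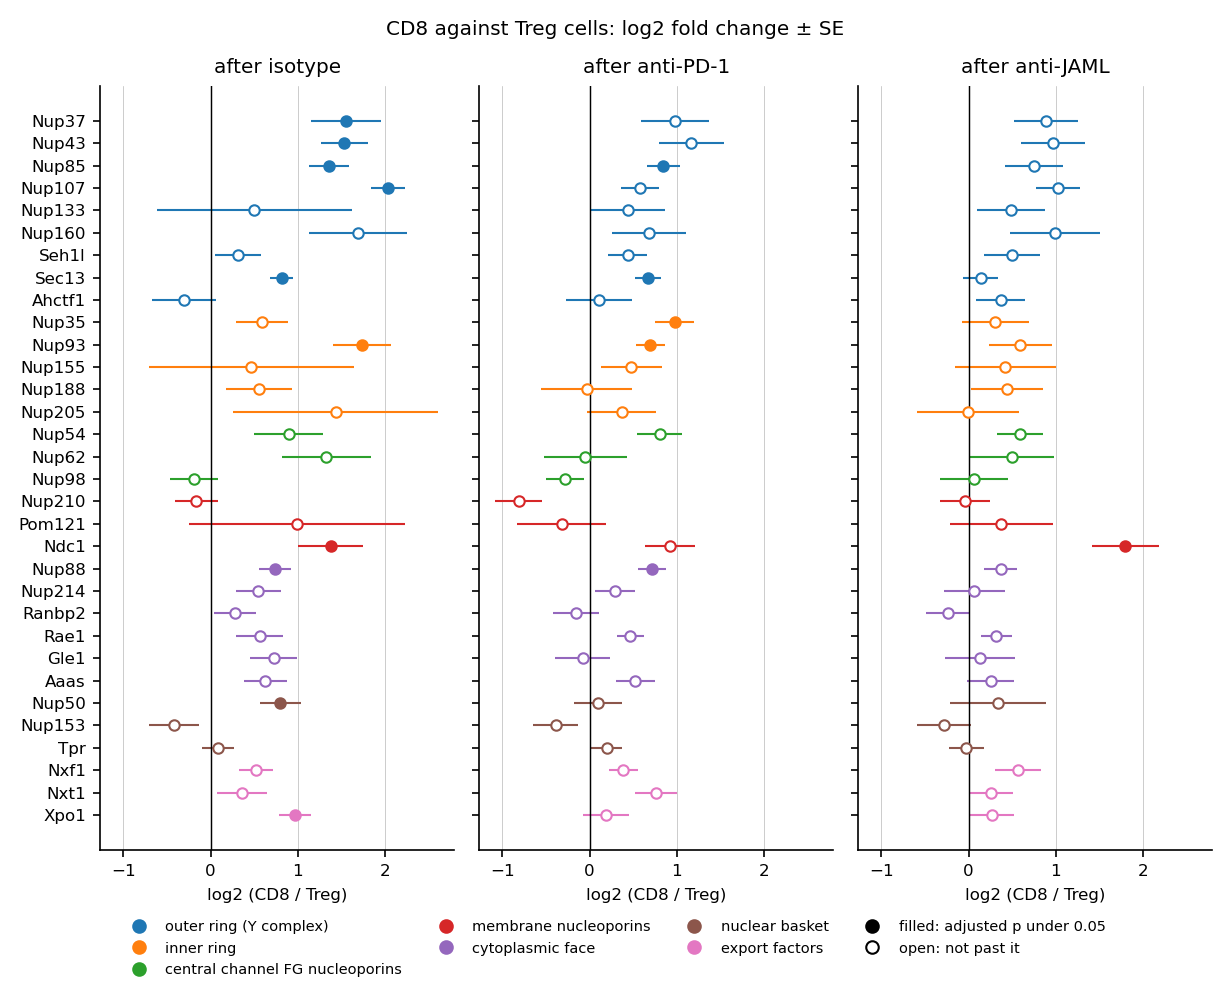
Log2 fold change of CD8 over Treg cells with its SE (horizontal axis) for each gene, ordered and coloured by structural module, in 1 panel per antibody; filled points passed an adjusted p of 0.05. After isotype antibody 10 points are filled and 28 lie right of 0, after anti-PD-1 5 are filled, and after anti-JAML only Ndc1 is.

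Promoters are shown for 3 of the genes called higher in CD8 cells. These were all the called genes with a promoter entry whose 250 bases before the start held no annotated exon. Nup93 had 2 such windows, and the first listed is shown. The promoter table used here, from RefSeq (GRCm38.p6, the mm10 build), matched 28 of the 32 genes. Each sequence runs 5′ to 3′ on the gene's strand and ends at the last base before the transcription start, and capitals mark matches to 8 motifs, on either strand and some of them overlapping.
Nup107 promoter, chr10:117792706-117792955, minus strand: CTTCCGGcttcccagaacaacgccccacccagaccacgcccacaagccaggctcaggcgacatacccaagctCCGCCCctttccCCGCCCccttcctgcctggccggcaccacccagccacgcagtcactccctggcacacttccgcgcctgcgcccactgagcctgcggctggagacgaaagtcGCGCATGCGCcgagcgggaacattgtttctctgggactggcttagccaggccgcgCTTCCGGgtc
Nup93 promoter, chr8:94214314-94214563, plus strand: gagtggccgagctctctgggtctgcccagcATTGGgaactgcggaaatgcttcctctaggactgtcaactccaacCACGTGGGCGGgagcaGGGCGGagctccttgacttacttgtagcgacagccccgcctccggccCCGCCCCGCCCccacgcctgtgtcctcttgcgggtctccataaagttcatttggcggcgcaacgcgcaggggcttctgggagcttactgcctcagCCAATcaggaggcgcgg
Xpo1 promoter, chr11:23255791-23256040, plus strand: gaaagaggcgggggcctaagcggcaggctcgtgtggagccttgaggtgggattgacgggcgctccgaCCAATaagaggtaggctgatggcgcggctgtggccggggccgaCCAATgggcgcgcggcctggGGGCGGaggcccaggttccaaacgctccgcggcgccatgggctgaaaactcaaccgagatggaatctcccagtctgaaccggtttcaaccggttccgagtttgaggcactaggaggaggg
The motifs were NRF1 (GCATGCGC), ETS (CCGGAAG), NF-Y (CCAAT), YY1 (AAGATGG), E2F (GGCGGGAA), SP (GGGCGG), CRE (TGACGT) and the E-box (CACGTG). In Nup107, an NRF1 match on each strand overlaps the other, at -65 and -63 from the start, and ETS matches lie at -250 and -10. In Xpo1, a pair of NF-Y matches lies at -183 and -140 with an SP match at -120. In Nup93, an E-box and an SP match overlap at -175 and -170, with NF-Y matches at -220 and -17.

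SP was the one motif found in all 3 promoters. For the shares that follow, a gene was scored as matched if any of its promoter windows held the letters. SP letters were found for 64.3% of the 28 genes, against 61.5% of 10107 genes past the count filter. NRF1 letters were found for 3 of the 28 (10.7%, against 5.08%), Nup107, Nup50 and Nup62. ETS letters were in 21.4% against 16.1%, NF-Y in 39.3% against 40.6%, YY1 in 7.14% against 5.28%, E2F in 3.57% against 4.11%, CRE in 14.3% against 11.8% and the E-box in 14.3% against 9.71%. The median GC content, averaged over the windows of a gene, was 63% over the 28 genes and 59.4% over the genes past the filter. A match is a string of letters, and says nothing of binding in these cells.

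After anti-PD-1, 5 of the 32 genes were called higher in CD8 than in Treg cells and 0 lower. Among all 12193 genes tested, 7.83% were called in either direction and 3.63% were higher in CD8 cells. The median log2 fold change was 0.44 over the 32 genes and -0.05 over all genes. Nup85 and Sec13 of the outer ring, Nup35 and Nup93 of the inner ring and Nup88 of the cytoplasmic face were the 5 genes.

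Nup35, an inner ring subunit that binds membrane, was called in this comparison and had not passed after isotype. It had 56.2, 49.7, 55.0 and 52.5 CPM in CD8 anti-PD-1 libraries and 27.3, 29.8, 29.6 and 21.4 CPM in Treg anti-PD-1 libraries. Both groups were tight and well apart, with a log2 fold change of 0.98 ± 0.22 (edgeR adjusted p = 0.0254). Nup85 had 172, 236, 172 and 244 CPM in CD8 anti-PD-1 libraries and 123, 113, 125 and 95.5 CPM in Treg anti-PD-1 libraries (0.85 ± 0.19, edgeR adjusted p = 0.0236). Sec13 had 424, 359, 352 and 388 CPM in CD8 anti-PD-1 libraries and 251, 220.5, 246 and 232 CPM in Treg anti-PD-1 libraries (0.67 ± 0.15, edgeR adjusted p = 0.0239). For both genes the CD8 libraries lay above all Treg libraries. Nup88 averaged 259 ± 34.2 CPM in CD8 anti-PD-1 and 157 ± 12.7 CPM in Treg anti-PD-1 (SD, n = 4 each), and Nup93 averaged 198 ± 19.0 CPM in CD8 anti-PD-1 and 122 ± 17.7 CPM in Treg anti-PD-1.

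Nup107 did not pass here. It had 164, 164, 111 and 144 CPM in CD8 anti-PD-1 libraries and 68.2, 112, 118 and 91.1 CPM in Treg anti-PD-1 libraries, so that the groups overlapped, at a log2 fold change of 0.58 ± 0.22 (edgeR adjusted p = 0.14). Nup210 had the lowest log2 fold change of the 32 genes, -0.81 ± 0.26, and did not pass (edgeR adjusted p = 0.0928). The count depended on single libraries: 0 genes were called without Treg anti-PD-1 library 2 or 4 or CD8 anti-PD-1 library 4, 1 without Treg anti-PD-1 library 3 or CD8 anti-PD-1 library 1, 3 without CD8 anti-PD-1 library 3, and 10 without Treg anti-PD-1 library 1. Among those 10, Nup210 was called lower in CD8 cells (-0.93 ± 0.26, edgeR adjusted p = 0.0434). Without Treg anti-PD-1 library 3 the call was Ndc1 (1.19 ± 0.27, edgeR adjusted p = 0.0449), so all 5 genes named above lost theirs. Without CD8 anti-PD-1 library 1 the call was Nup85. For fits that left libraries out, here and below, the share of all genes called is not given. DESeq2 called 11, of which only Nup210 was lower in CD8 cells, and 16.5% of all genes. Macrophage marker sums were 4.86 to 128 CPM in CD8 anti-PD-1 and 11.6 to 1128 CPM in Treg anti-PD-1, with all 7 markers counted in both groups. Without Treg anti-PD-1 libraries 1 and 4, which held most of these counts, 6 genes were called, Nup37, Nup43, Sec13, Nup88 and Nxt1 higher in CD8 cells and Nup210 lower, and the median log2 fold change was 0.29. Proliferation genes summed to 4701 to 5920 CPM in CD8 anti-PD-1 and 3486 to 4256 CPM in Treg anti-PD-1, with 4 of 16 called higher. The B cell marker Cd79b was called lower in CD8 cells (-3.43 ± 0.54, edgeR adjusted p = 0.00578). The part of these markers was not tested.

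After anti-JAML, Ndc1 was the 1 gene called among the 32, against 2.08% of 11950 genes in either direction and 0.728% higher in CD8 cells. It had 58.5, 89.0, 60.4 and 84.8 CPM in CD8 anti-JAML libraries and 22.5, 29.1, 18.1 and 9.19 CPM in Treg anti-JAML libraries. The groups were well separated, with a log2 fold change of 1.80 ± 0.39 (edgeR adjusted p = 0.0471). This p lay just below the threshold, and in each of the 8 fits that left out 1 library the call was lost, with adjusted p from 0.0729 to 0.118. Without CD8 anti-JAML libraries 2 and 4, the log2 fold change was 1.5 and the adjusted p 0.15, in a range of 0.000173 to 0.15 over the alternatives. Nup107, next in rank, had 117, 112, 78.3 and 101 CPM in CD8 anti-JAML libraries and 56.3, 43.6, 36.6 and 50.7 CPM in Treg anti-JAML libraries, without overlap, but did not pass (1.03 ± 0.25, edgeR adjusted p = 0.0727). The median log2 fold change was 0.37 over the 32 genes and -0.03 over all genes, and 27 were above 0. Proliferation genes summed to 3257 to 4229 CPM in CD8 anti-JAML and 2088 to 2863 CPM in Treg anti-JAML. Of the 16, 0 were called and 1 had an unadjusted p under 0.05, against 12.8% of all genes. DESeq2 called 2 of the 32 genes, Ndc1 and Nup107, and 8.11% of all genes.

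**Figure D3:**
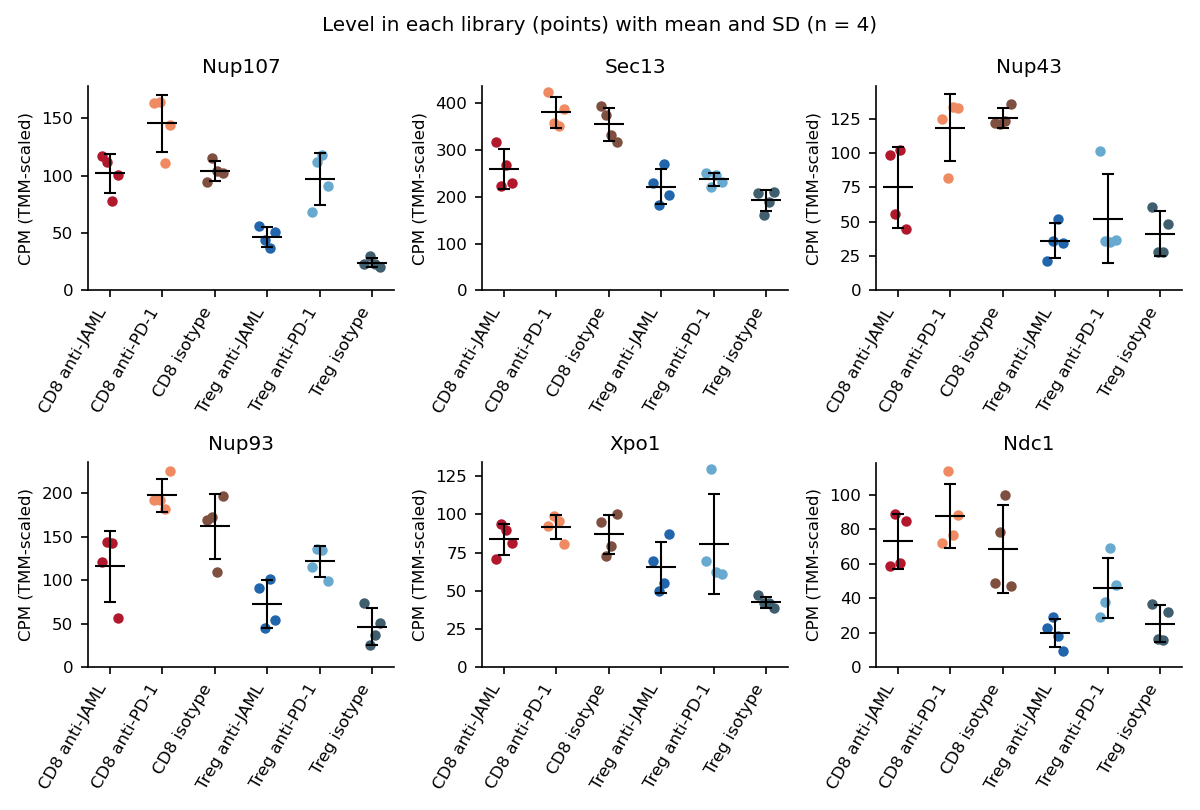
CPM in each library (points) with the group mean and SD (n = 4) for 6 genes, with the antibody groups left of isotype and CD8 left of Treg. Nup107 is lowest in Treg isotype, at 20.9 to 30.2 CPM, and Ndc1 is at 9.19 to 29.1 CPM in Treg anti-JAML; Nup43 and Xpo1 each have 1 Treg anti-PD-1 library far above the other 3.

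Within Treg cells, anti-PD-1 was set against isotype to ask what the antibody changed. Nup107 was the 1 gene called among the 32, in a comparison with 3 called genes in all (0.0231% of 12981 tested). Nup107 rose to 68.2, 112, 118 and 91.1 CPM in Treg anti-PD-1 libraries, against 22.7, 30.2, 23.1 and 20.9 CPM in Treg isotype libraries. The lowest library after anti-PD-1 was above the highest after isotype by more than the spread within isotype, and the log2 fold change was 2.01 ± 0.25 (edgeR adjusted p = 0.0151). The means were 97.4 ± 22.6 CPM in Treg anti-PD-1 and 24.2 ± 4.11 CPM in Treg isotype (SD, n = 4 each), and CD8 isotype libraries lay at a similar 94.6 to 115 CPM. The Nup107 call in CD8 against Treg after isotype used the same Treg isotype libraries, so these calls are not independent of each other.

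Of the other 31 genes none passed, though 12 of the 32 had an unadjusted p under 0.05 (37.5%, against 14.1% of all genes), and DESeq2 called 6, Nup107, Gle1, Nup62, Nup93, Nup214 and Xpo1, and 5.87% of all genes. The log2 fold change was above 0 for 27 of the 32, with a median of 0.57, against 0.04 over all genes. Without Treg isotype library 2 this median was 0.37, and in a model that also held how many genes a library detected it was 0.36. Gle1, which activates the helicase that strips export factors from mRNA, had 51.4, 68.2, 88.6 and 58.1 CPM in Treg anti-PD-1 libraries and 22.6, 23.4, 30.6 and 29.5 CPM in Treg isotype libraries. These did not overlap, but the difference did not pass (1.32 ± 0.28, edgeR adjusted p = 0.0939). Nup93 had 115, 136, 135 and 99.4 CPM in Treg anti-PD-1 libraries and 74.0, 25.2, 36.5 and 50.3 CPM in Treg isotype libraries (1.39 ± 0.34, edgeR adjusted p = 0.121). Nup62, the hub of the channel FG complex, had the highest log2 fold change, 2.47 ± 0.64, on values of 31.2, 192, 193 and 110.4 CPM in Treg anti-PD-1 libraries and 16.7, 8.14, 17.6 and 52.1 CPM in Treg isotype libraries. The groups overlapped through Treg anti-PD-1 library 1 and Treg isotype library 4, and it did not pass (edgeR adjusted p = 0.123). All 6 cytoplasmic face genes had a fold above 0, with a median log2 fold change of 0.57, and 4 of them had an unadjusted p under 0.05.

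The Nup107 call depended on single libraries and on the model. It was lost without Treg isotype library 1 or 3 or Treg anti-PD-1 library 2, 3 or 4, where the adjusted p was 0.0573 to 0.114 and the log2 fold change 1.89 to 2.04. Without Treg isotype library 4, Nup62 was called as well (3.25 ± 0.63, edgeR adjusted p = 0.0404). In a model that also held how many genes a library detected, Nup107 had a log2 fold change of 1.92 and an adjusted p of 0.9998, the highest of a range that began at 9.56e-13 with DESeq2. Without Treg anti-PD-1 libraries 1 and 4, its log2 fold change was 2.27 and its adjusted p 0.0196. Treg anti-PD-1 libraries had 14031 to 15162 genes with a count, against 12643 to 14378 in Treg isotype. All 7 macrophage markers had counts in Treg anti-PD-1, with sums of 11.6 to 1128 CPM, and 6 of 7 in Treg isotype, with sums of 20.1 to 77.0 CPM and Csf1r at 0. Globin genes summed to 0 to 626 CPM in Treg anti-PD-1 and 0 to 0.0646 CPM in Treg isotype. In Treg anti-PD-1 libraries 1 to 4 in turn, macrophage sums were 766, 146, 11.6 and 1128 CPM. Nup107 lay at 68.2, 112, 118 and 91.1 CPM in the same libraries. The part of macrophage and red blood cell RNA in the Nup107 result was not tested. Proliferation genes summed to 3486 to 4256 CPM in Treg anti-PD-1 and 1487 to 3030 CPM in Treg isotype, with a fold above 0 for 16 of 16, 12 of them at an unadjusted p under 0.05 and 0 called, and their part in the Nup107 result was not tested.

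Anti-JAML in Treg cells gave 0 calls among the 32 genes against isotype, where edgeR called 0% of 12981 genes. At an unadjusted p under 0.05 there were 4 genes (12.5%, against 5.38% of all genes). DESeq2 called 1, Nup107 (adjusted p = 0.0156), and 1.14% of all genes. Nup107 again had the smallest p, with 56.3, 43.6, 36.6 and 50.7 CPM in Treg anti-JAML libraries and 22.7, 30.2, 23.1 and 20.9 CPM in Treg isotype libraries. Those groups did not overlap, but the log2 fold change of 0.95 ± 0.25 did not pass (edgeR adjusted p = 0.853). Nup88 (0.45 ± 0.18) and Gle1 (0.67 ± 0.28) came next. The median log2 fold change of the 32 genes was 0.18, against 0.02 over all genes, and it was 0.29 without Treg isotype library 1, 0.32 without library 4 of that group and 0.11 in the model with the number of detected genes. Of the 16 proliferation genes, 12 had a fold above 0, with a median log2 fold change of 0.36 and 1 at an unadjusted p under 0.05. Both antibody comparisons share the Treg isotype libraries.

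Set directly against anti-PD-1, anti-JAML in Treg cells gave 0 calls among the 32 genes and 0% of 12981 genes by edgeR. An unadjusted p under 0.05 was found for 4 of the 32 (12.5%, against 5.72% of all genes). DESeq2 called Nup107, and 1.02% of all genes. The log2 fold change was below 0 for 27 genes, at a median of -0.33 against -0.03 over all genes. It was also below 0 for all 16 proliferation genes, at a median of -0.71 with 4 at an unadjusted p under 0.05, and for all 7 macrophage markers, at a median of -1.75 with 1 at an unadjusted p under 0.05. Macrophage sums were 9.90 to 95.2 CPM in Treg anti-JAML and 11.6 to 1128 CPM in Treg anti-PD-1, and the part of either list was not tested. Nup107 had the smallest p, at a log2 fold change of -1.06 ± 0.25 (edgeR adjusted p = 0.472), without overlap of the groups. Ndc1 (-1.21 ± 0.43) and Gle1 (-0.66 ± 0.28) came next and did not pass.

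Within CD8 cells, anti-JAML gave 0 calls among the 32 genes against isotype, and edgeR called 0% of 12648 genes. There were 5 of the 32 at an unadjusted p under 0.05 (15.6%, against 11.7% of all genes). DESeq2 called 0, with 2.19% of all genes called, and without the libraries that stood apart edgeR again called 0. The median log2 fold change was -0.01, against 0.09 over all genes, and it lay on either side of 0 when single libraries were left out, from -0.05 to 0.04. Of the 16 proliferation genes 3 had a fold above 0, at a median log2 fold change of -0.30, with 8 at an unadjusted p under 0.05 and 0 called. Sec13 had 317, 223, 269 and 229 CPM in CD8 anti-JAML libraries and 394, 375, 332 and 318 CPM in CD8 isotype libraries, and the groups touched at 317 and 318 CPM without overlapping. The log2 fold change was -0.41 ± 0.15 (edgeR adjusted p = 0.356). Nup43 had 98.8, 55.4, 102 and 44.6 CPM in CD8 anti-JAML libraries and 122, 121, 123 and 136 CPM in CD8 isotype libraries, with both of the low values in libraries 2 and 4, which stood apart (-0.70 ± 0.26, edgeR adjusted p = 0.356). Ahctf1 had 65.2, 81.4, 55.1 and 50.3 CPM in CD8 anti-JAML libraries and 38.5, 39.0, 27.5 and 56.3 CPM in CD8 isotype libraries, which overlapped (0.68 ± 0.25, edgeR adjusted p = 0.358).

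Anti-PD-1 in CD8 cells also gave 0 calls among the 32 genes and 0% of 12648 genes against isotype by edgeR. An unadjusted p under 0.05 was found for 5 of the 32 (15.6%, against 5.61% of all genes). DESeq2 called 0 of the 32, and 0.432% of all genes. The log2 fold change was above 0 for 24 genes, at a median of 0.27 against 0.04 over all genes. Without CD8 anti-PD-1 library 2 this median was 0.16. In a model that also held how many genes a library detected, this median was 0.05, and CD8 anti-PD-1 libraries had 14396 to 15356 genes with a count, against 13927 to 14390 in CD8 isotype. Nup107 had 164, 164, 111 and 144 CPM in CD8 anti-PD-1 libraries against 94.6, 115, 104 and 103 CPM in CD8 isotype libraries, which overlapped (0.51 ± 0.18, edgeR adjusted p = 0.865). Nup62 had 94.8, 197, 96.1 and 122 CPM in CD8 anti-PD-1 libraries and 64.2, 76.4, 41.8 and 63.9 CPM in CD8 isotype libraries. These did not overlap, yet the difference did not pass (1.09 ± 0.41, edgeR adjusted p = 0.865). Nup88 came next, at 0.39 ± 0.16. Of the 16 proliferation genes 11 had a fold above 0, at a median log2 fold change of 0.20, with 3 at an unadjusted p under 0.05 and 0 called. The 3 globin genes stood at a median of -5.00 on the log2 scale, with 1 at an unadjusted p under 0.05. The part of either list was not tested.

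In CD8 cells, anti-JAML set against anti-PD-1 gave 0 calls among the 32 genes, where edgeR called 1 of 12648 genes (0.00791%). At an unadjusted p under 0.05 there were 6 of the 32 (18.8%, against 9.97% of all genes). DESeq2 called 1, Sec13, and 2.83% of all genes. The log2 fold change was below 0 for 25 genes, at a median of -0.28, against 0.02 over all genes, and in that same model this median was -0.09. It was also below 0 for all 16 proliferation genes, at a median of -0.55 with 8 at an unadjusted p under 0.05. The globin genes, 3 in number, stood at a median of 6.75 on the log2 scale, all at an unadjusted p under 0.05, on sums of 0 to 457 CPM in CD8 anti-JAML and 0 to 6.86 CPM in CD8 anti-PD-1. The part of either list was not tested. Sec13 had the smallest p, on 317, 223, 269 and 229 CPM in CD8 anti-JAML libraries against 424, 359, 352 and 388 CPM in CD8 anti-PD-1 libraries. All anti-JAML values were lower, with a log2 fold change of -0.53 ± 0.15 that did not pass (edgeR adjusted p = 0.21). Nup93 (-0.75 ± 0.26) and Nup107 (-0.50 ± 0.18) came next.

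**Figure D4:**
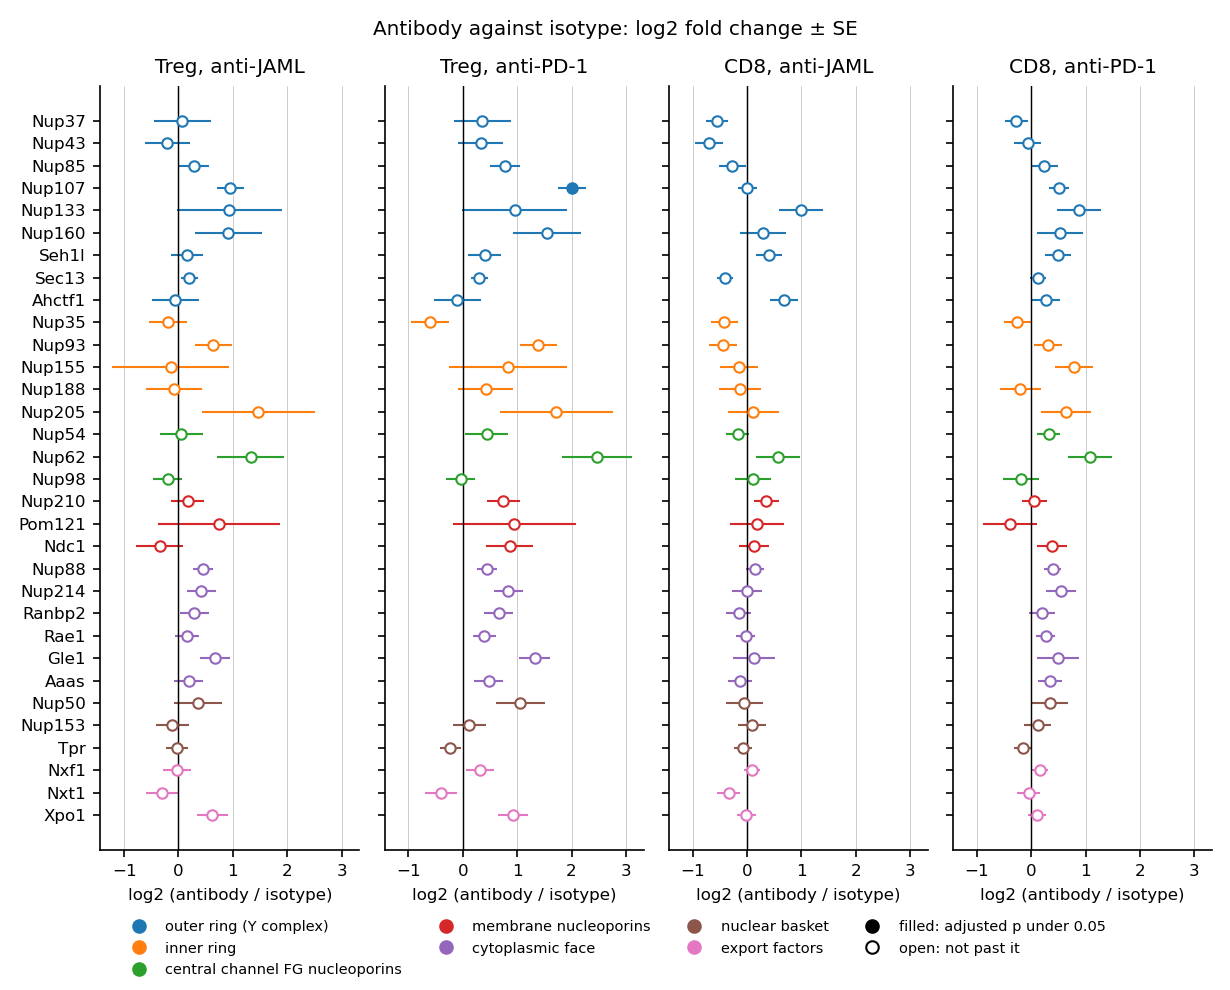
Log2 fold change of antibody over isotype with its SE (horizontal axis) for each gene, in 1 panel per population and antibody; filled points passed an adjusted p of 0.05. Nup107 after anti-PD-1 in Treg cells, at 2.01, is the single filled point, and 27 of 32 points in that panel lie right of 0.

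Whether an antibody changed the genes differently in CD8 than in Treg cells was tested as an interaction over all 24 libraries. For anti-PD-1, 0 of the 32 genes passed and edgeR called 0% of 14591 genes. Of the 32, 3 had an unadjusted p under 0.05 (9.38%, against 6.25% of all genes). DESeq2 called 1, Nup107, and 1.32% of all genes. In edgeR Nup107 came closest, with a difference of log2 fold changes (CD8 minus Treg) of -1.52 ± 0.29 (edgeR adjusted p = 0.111). Xpo1 (-0.84 ± 0.32) and Nup93 (-1.10 ± 0.44) came next. Nup107 was called without Treg anti-PD-1 library 1 (-1.66 ± 0.28, edgeR adjusted p = 0.0373), and without libraries 1 and 4 of that group (-1.76 ± 0.30, edgeR adjusted p = 0.0482). For anti-JAML, edgeR likewise called 0 of the 32 genes and 0% of 14591. Of the 32, 4 had an unadjusted p under 0.05 (12.5%, against 8.39% of all genes). DESeq2 called Sec13, and 1.97% of all genes. Nup107 had -0.98 ± 0.29 (edgeR adjusted p = 0.368), Sec13 -0.65 ± 0.21 and Nup93 -1.12 ± 0.44. The medians over the 32 genes were -0.37 for anti-PD-1 and -0.35 for anti-JAML, against -0.07 and -0.04 over all genes. For anti-PD-1 the median was -0.20 without Treg anti-PD-1 library 3, and for anti-JAML it was -0.16 in the model with the number of detected genes. The proliferation genes had medians of -0.89 for anti-PD-1 (16 of 16 below 0, 6 at an unadjusted p under 0.05) and -0.63 for anti-JAML (15 of 16 below 0, 6 at an unadjusted p under 0.05), and their part was not tested.

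Summarised per library, the mean log2(CPM + 1) of the 32 genes was 6.15 ± 0.14 in CD8 anti-JAML, 6.43 ± 0.16 in CD8 anti-PD-1 and 6.22 ± 0.05 in CD8 isotype. It was 5.66 ± 0.12 in Treg anti-JAML, 6.04 ± 0.18 in Treg anti-PD-1 and 5.29 ± 0.35 in Treg isotype (SD, n = 4 each). The 4 Treg isotype libraries ran from 4.85 to 5.60, a wider spread than in any other group, and their highest reached above the lowest Treg anti-JAML library. The genes took 0.168% to 0.392% of all counts in a library. The sums over the proliferation genes, set beside this mean in the plot of library measures, were 3257 to 4229 CPM in CD8 anti-JAML, 4701 to 5920 CPM in CD8 anti-PD-1 and 4758 to 5415 CPM in CD8 isotype.

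**Figure D5:**
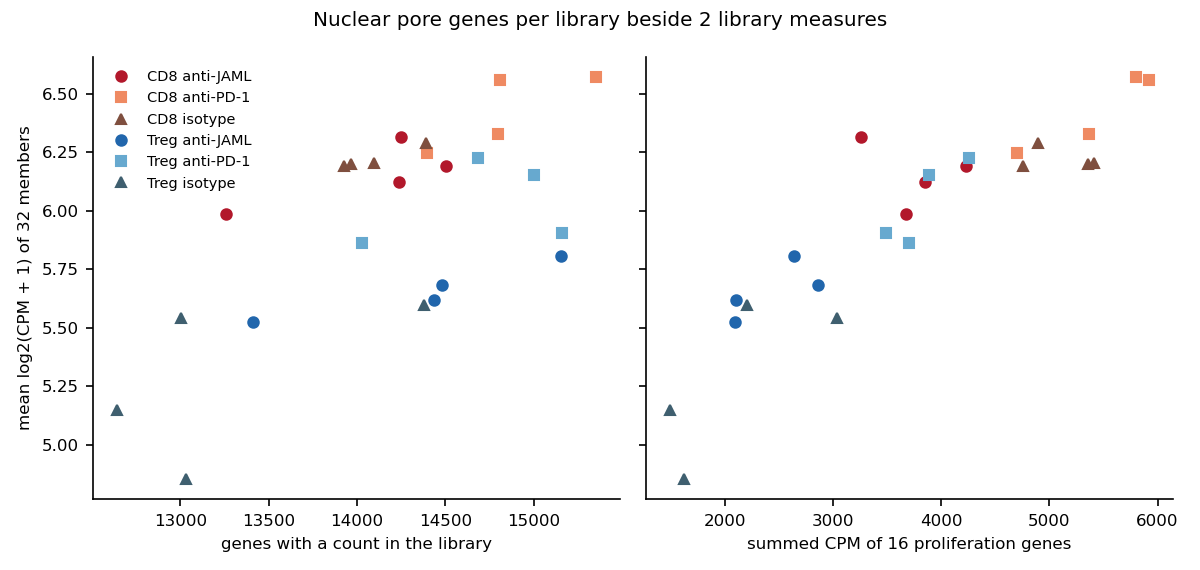
Mean log2(CPM + 1) of the 32 genes in each of the 24 libraries (vertical axis) against the number of genes with a count (left) and the summed CPM of 16 proliferation genes (right), with 1 symbol per group. The highest points, up to 6.57, are CD8 anti-PD-1 libraries, and the lowest, down to 4.85, are Treg isotype libraries.

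Beyond the pore itself, 65 other genes of nuclear transport were listed by role, and 62 were tested. After isotype antibody, 12 were called higher in CD8 than in Treg cells and 0 lower, against 8.21% of all genes higher, and the median log2 fold change was 0.46, against -0.06 over all genes. They included 5 of 16 genes of mRNA export, and 1 each of 17 import receptors, 6 export receptors and 11 genes of the lamina and envelope. Ran, the GTPase that gives transport its direction, averaged 1799.9 ± 52.3 CPM in CD8 isotype and 612.6 ± 217 CPM in Treg isotype (SD, n = 4 each), at a log2 fold change of 1.48 ± 0.21 (edgeR adjusted p = 0.00237). The mRNA export helicase Ddx39 had a log2 fold change of 1.22 ± 0.16 and Banf1, which bridges chromatin and the envelope, 1.35 ± 0.18. The importin alpha Kpna2 was called at 1.09 ± 0.18.

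After anti-PD-1, 4 of the 62 were called higher in CD8 than in Treg cells, Cse1l, Ran, Ranbp1 and Ddx39, with log2 fold changes from 0.81 to 0.91, against 3.63% of all genes higher. Over the 62 the median log2 fold change was 0.21, against -0.05 over all genes. Lmna, which encodes the A-type lamins, was called lower, at 1.22 ± 1.29 CPM in CD8 anti-PD-1 and 62.5 ± 35.9 CPM in Treg anti-PD-1 (SD, n = 4 each). After anti-JAML edgeR called 0 of the 62, with 11 at an unadjusted p under 0.05, against 12.8% of all genes. In the antibody comparisons and interactions edgeR called 0 of the 62, with 3 to 15 at an unadjusted p under 0.05 and the most in Treg anti-PD-1 against isotype. Over all genes this share was 5.38% to 14.1%, also highest in that comparison.

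Some counts may be shared between neighbouring genes, and the strand setting of the counting is not given in the sources used here. In GENCODE M21 on mm10, 10 of the 32 genes share exon bases with another gene. Pom121 was the one with fewer counts than its neighbour, sharing 665 bases with Nsun5 on the opposite strand, at 4000 counts over all libraries against 7664 for Nsun5. Nup35 shares 131 bases with Dusp19 on the same strand (16926 counts against 5556), and Nup88 shares 48 bases with Rabep1 (68619 against 11852). Values of these genes are uncertain to that extent. Ranbp2 has 12 annotated pseudogene copies, all listed at 0 counts.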

How the data were processed

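RNA was measured in 24 Smart-seq2 libraries from sorted T cells. The deposited count table holds whole-number counts per gene, and the TPM values (scaled by transcript length and library total) are the authors' own. Tools named in the submitters' processing notes are STAR 2.7.3a, fastp 0.20.1, deepTools 3.3.1 and SAMtools, with the mm10 build. Counting tool, strand setting and annotation were not given in the sources used here.

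From the counts, edgeR 4.0.16 in R 4.3.3 (limma 3.58.1) was run with TMM scaling, filterByExpr (minimum count 10, minimum total 15), robust quasi-likelihood fits and two-sided F tests. P-values were adjusted by Benjamini-Hochberg over all genes tested, with a threshold of 0.05. Fits used the 12 libraries of a population for antibody comparisons, the 8 libraries of an antibody for CD8 against Treg, and all 24 for interactions. The SE of a log2 fold change is its size divided by the square root of F. CPM are TMM-scaled. DESeq2 1.42.0 was an alternative. The edgeR fits were also run on simulated counts, with the same relative spread set for every gene and no outlying library. That run does not show how the fits perform on noisier genes or on the libraries that stood apart.

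Libraries held 11170918 to 22556460 counts, and precision is set by 4 libraries per group. The genes and the lists were chosen with earlier results of these data known. Values in every library are given for up to 8 genes past the threshold with the smallest adjusted p, and for the 3 with the smallest p in each comparison; of the transport lists, called genes with the smallest p are named. Promoter windows come from RefSeq's GRCm38.p6 table, and gene positions from GENCODE M21. A gene of the transport lists is not reported here.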

Additional observations from a re-analysis of the deposited data

Results flagged for a closer look

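In 6 of the 72 group values examined, 1 library lay far from the other 3 of its group, and chance alone gives this in about 1 in 20 groups. Nup43 had 101 CPM in Treg anti-PD-1 library 1, against 35.4 to 36.4 CPM in the other 3 libraries of that group. Nup43 also had 82.2 CPM in CD8 anti-PD-1 library 2, below 125 to 133 CPM in the others, and 136 CPM in CD8 isotype library 4, above 121 to 123 CPM in the others. Xpo1 had 129.5 CPM in Treg anti-PD-1 library 2, against 61.0 to 69.4 CPM in the other 3. Nup50 had 63.4 CPM in CD8 isotype library 1, below 76.5 to 78.7 CPM in the others. The mean log2(CPM + 1) of the 32 genes was 6.29 in CD8 isotype library 4, above 6.19 to 6.21 in the others.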

How the results depend on the processing

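No called value changed its direction under any alternative; the median of CD8 anti-JAML against isotype, -0.01, was 0.0051 with RLE scaling, 0.01 with DESeq2 and -0.0516 to 0.0391 when 1 library was left out. Outside the fits that left out 1 library, 24 summary values moved and 139 did not, and 34 values of single genes lost their call and 86 did not; the cause was not tested. The number of genes called changed as follows. Apart from DESeq2, whose shares stand with each comparison above, the share of all genes called in these alternatives is not given. Changed counts may therefore not be particular to the nuclear pore genes. DESeq2 called 1 in CD8 anti-JAML set against anti-PD-1, 1 in Treg anti-JAML against isotype, 6 in Treg anti-PD-1 against isotype, 1 in Treg anti-JAML against anti-PD-1, 11 between CD8 and Treg cells after anti-PD-1, 2 after anti-JAML, and 1 in each interaction. In a model that also held how many genes each library detected, 3 were called in CD8 against Treg after isotype, 8 after anti-PD-1, 0 after anti-JAML, and 0 in Treg anti-PD-1 against isotype. There the median log2 fold change was 0.0486 in CD8 anti-PD-1 against isotype and -0.0855 in CD8 anti-JAML set against anti-PD-1. Without the libraries that stood apart, 6 were called in CD8 against Treg after isotype, 0 after anti-JAML, and 0 in Treg anti-PD-1 against isotype. Without a filter on low counts, 1 was called in CD8 against Treg after anti-PD-1. In 1 fit of all 24 libraries, 2 were called between CD8 and Treg cells after anti-PD-1, 2 after anti-JAML, and 4 in Treg anti-PD-1 against isotype. Chosen after seeing the data, the fit without Treg anti-PD-1 libraries 1 and 4 called 1 in the anti-PD-1 interaction. Leaving out 1 library at a time gave 6 to 12 calls in CD8 against Treg after isotype, 0 to 10 after anti-PD-1, 0 after anti-JAML, 0 to 2 in Treg anti-PD-1 against isotype, and 0 to 1 in the anti-PD-1 interaction. The median log2 fold change of CD8 against Treg after anti-JAML was 0.276 without CD8 anti-JAML library 2 and 0.506 without library 4 of that group. The replicate numbers gave no clear pairing of the libraries. Deviations of same-numbered libraries correlated at -0.18 to 0.15 over 36 pairs, 2 of them over 0.1. In 11 of the 36 pairs, the first library correlated best with its own number among the 4 libraries of the other group. Between CD8 and Treg libraries of the same antibody the values ran from -0.0842 to 0.129. Low values cannot exclude that same-numbered CD8 and Treg libraries came from the same mouse, and the main fits did not pair them. The replicate block gave 7 calls in CD8 against Treg after isotype, 0 after anti-JAML, and 0 in Treg anti-PD-1 against isotype, where Nup107 had an adjusted p of 0.251. With 4 libraries a group, and fewer than 400 cells in each, smaller differences of genes with low counts were not detectable.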
